A study of Homo sapiens with 6 samples.

Results

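EGR1, EGR2, EGR3, KLF2, KLF4, KLF6, KLF10, IER2, IER3 and IER5 are early response genes, whose transcription rises within minutes of a growth factor, stress or radiation stimulus without new protein synthesis. The 10 genes were taken by symbol from a table of 19977 gene symbols, and all 10 were found. The libraries measured polyadenylated RNA of U2OS cells, an osteosarcoma line, grown in medium with fetal bovine serum and otherwise untreated. The 3 siNUDT5 libraries came from cells transfected with siRNA against NUDT5, a NUDIX hydrolase that cleaves ADP-ribose, and the 3 siCtrl libraries from cells transfected with a non-targeting siRNA. RNA was taken 48 hours after transfection in both groups. The sources used here do not give the siRNA sequences or how many siRNAs were used. The comparison is of the level of these genes in serum-fed cells after siNUDT5 and siCtrl transfection, with no stimulus added in either group. The labels do not say whether the libraries of a group are separate cultures. The p-values therefore rest on a spread between libraries that may be technical only.

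EGR proteins are zinc finger transcription factors that bind GC-rich sites and are themselves switched on by serum response factor (SRF) together with ternary complex factors of the ETS family at CArG boxes, after ERK signalling. KLF proteins are zinc finger factors that bind GC-rich and CACCC sites. KLF2 is known as a target of the kinase ERK5 through MEF2 factors. IER genes share their rapid induction more than their function: IER2 and IER5 are related proteins that bind the phosphatase PP2A, and IER3, also called IEX-1, acts on ERK signalling and cell survival. Many early response mRNAs decay fast through AU-rich elements in the 3' UTR.

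The promoters shown are the member windows with a CArG box or a MEF2 site, the rarest matches found (EGR1, EGR2 and KLF2), and that of IER5, the member that was lower in siNUDT5 libraries. The sequences are RefSeq's, on GRCh38.p14, and cover the 250 bases before an annotated start, 5′ to 3′ on the gene's strand. RefSeq promoters were found for 7 members, EGR1, EGR2 (3 starts), KLF2, KLF4, KLF6, IER2 and IER5, and not for EGR3, KLF10 and IER3. Capitals mark CArG boxes in EGR1 and EGR2 and a MEF2 site in KLF2. In IER5 they mark the extended ETS core CCGGAA and CCAAT boxes (ATTGG on the strand shown). EGR1 lies on chr5:138465229-138465478 (plus strand), the third EGR2 start on chr10:62816367-62816616 (minus strand), KLF2 on chr19:16324576-16324825 (plus strand) and IER5 on chr1:181088450-181088699 (plus strand).
EGR1: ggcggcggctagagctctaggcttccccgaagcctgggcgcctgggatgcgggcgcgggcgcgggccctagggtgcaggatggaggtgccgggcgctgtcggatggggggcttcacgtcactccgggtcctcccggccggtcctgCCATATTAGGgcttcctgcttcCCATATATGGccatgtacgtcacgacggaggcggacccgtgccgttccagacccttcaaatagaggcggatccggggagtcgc
EGR2: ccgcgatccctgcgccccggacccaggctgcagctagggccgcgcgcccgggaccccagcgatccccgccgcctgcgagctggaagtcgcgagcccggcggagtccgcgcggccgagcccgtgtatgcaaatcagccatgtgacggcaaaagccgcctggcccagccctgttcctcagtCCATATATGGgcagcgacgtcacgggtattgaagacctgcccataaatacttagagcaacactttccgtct
KLF2: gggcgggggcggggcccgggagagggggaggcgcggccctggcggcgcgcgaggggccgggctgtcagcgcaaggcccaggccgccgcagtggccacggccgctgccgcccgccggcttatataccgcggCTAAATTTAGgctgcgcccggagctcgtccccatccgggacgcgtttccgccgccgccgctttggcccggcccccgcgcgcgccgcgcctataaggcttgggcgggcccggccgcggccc
IER5: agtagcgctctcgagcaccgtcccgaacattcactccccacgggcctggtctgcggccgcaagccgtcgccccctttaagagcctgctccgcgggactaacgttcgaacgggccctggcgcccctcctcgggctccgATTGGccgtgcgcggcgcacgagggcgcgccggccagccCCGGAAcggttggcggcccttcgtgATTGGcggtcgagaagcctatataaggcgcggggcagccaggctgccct

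CArG boxes were found in 1.16% of 35116 such windows, searched on both strands, and among the members in EGR1 (2 boxes) and at 1 of the 3 EGR2 starts. The EGR1 boxes lay at bases -105 to -96 and -83 to -74 before the start, and the EGR2 box at -71 to -62. MEF2 sites were found in 0.515% of windows and in KLF2 at -120 to -111. The extended ETS core CCGGAA was found in 14.5% of windows and in IER2 and IER5. Shorter forms of it were not searched for. The CRE core TGACG was found in 21.2% of windows and in EGR1, EGR2, KLF4 and IER2. The GC box GGGCGGGG was found in 21.8% and in EGR2, KLF2, KLF4 and IER2, and CCAAT in 32.0% and in KLF6 and IER5. The EGR site GCGGGGGCG was found in 4.72% of windows and in KLF2 and KLF6, where the KLF2 match overlaps a pair of GC boxes. No member window held GCGTGGGCG, TGACGTCA or TATAAA, which 0.720%, 1.65% and 10.7% of windows held. These are letter matches and were not tested as binding sites.

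**Figure D1:**
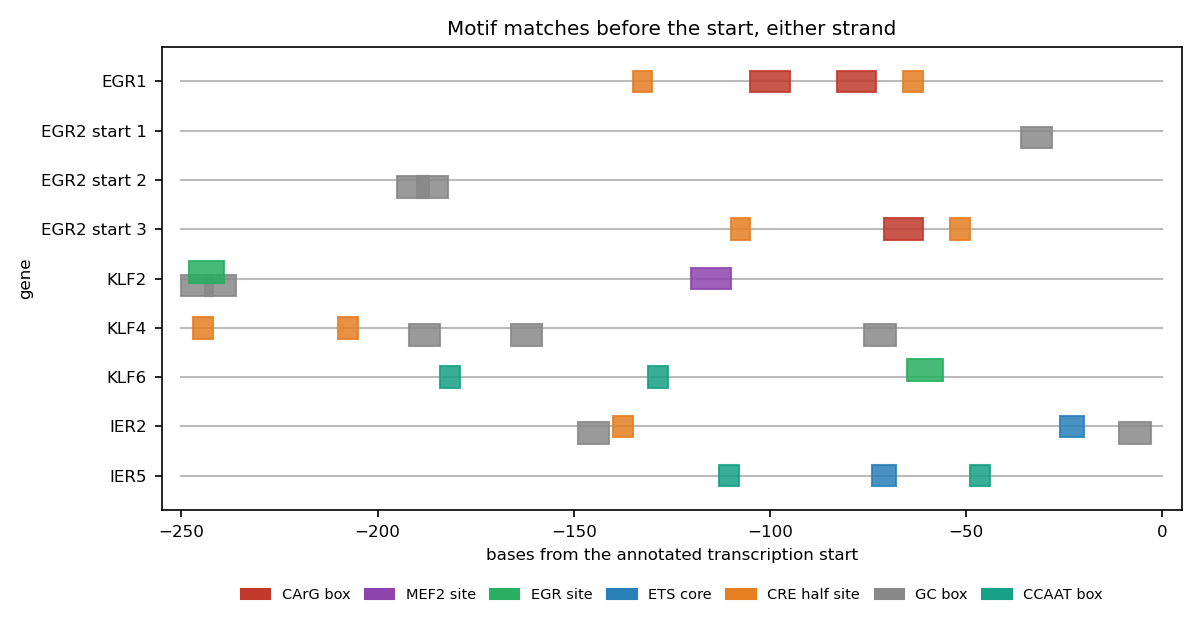
Motif matches in the 250 bases before each RefSeq start of 7 members, in bases from the start, with a coloured block for each match on either strand. CArG boxes appear only in EGR1 and at the third EGR2 start, and the MEF2 site only in KLF2, among the 9 windows drawn.

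The AU-rich word ATTTA occurred in the longest annotated 3' UTR of 9 of the 10 members (GENCODE 29), all but IER2, and in 75.7% of 11481 tested genes that were searched. IER3 held 6 copies in 903 bases, or 6.64 per kb, against a median of 1.59 per kb over the tested genes. IER5 held 10 copies in 3013 bases and was the only member with the longer word TTATTTATT, which it held 3 times and which 9.62% of tested genes held. The densest 30 bases of each are shown, with TATTTAT in capitals in IER3 and TTATTTATT in IER5, at bases 420 to 449 and 2556 to 2585 of the 3' UTR. KLF2, with 3.56 copies of ATTTA per kb, and KLF6 held TATTTAT too, as did 36.6% of tested genes. The part of these words in the changes was not tested.
IER3: gctcctaattaaTATTTATatgTATTTATg
IER5: ggtgtcttcctTTATTTATTTATTTATTta

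NUDT5 itself stood at 3.04, 2.74 and 2.67 TPM in siNUDT5 1 to 3, against 46.2, 49.0 and 52.0 TPM in siCtrl 1 to 3, so 5.74% of the siCtrl mean was left. TPM is a level scaled for transcript length and library total, so levels can be compared between genes. Relative depth, read from the steps of low values, was 89.4% to 118% of siCtrl 1 in siNUDT5 libraries and 64.1% to 112% in siCtrl libraries, lowest in siCtrl 2. siCtrl 2 also stood apart, with a median absolute difference of 0.296 and 0.227 on the log2(TPM + 1) scale from the other siCtrl libraries, against 0.0967 to 0.134 in the other 4 pairs of libraries of a group. The 8 mesenchymal and osteoblast markers summed to 4910 to 5013 TPM in siNUDT5 and 4196 to 4482 TPM in siCtrl libraries, mostly vimentin, while COL1A2 and TWIST1 stayed under 1 TPM. Of these, 1 passed, the alkaline phosphatase gene ALPL, with a log2 change of 0.49 (limma, adjusted p = 0.0472), a call that held in 6 of 14 alternatives and in neither scaling. Of 7 blood, epithelial and endothelial markers 6 were in the table and summed to 7.54 to 7.82 TPM in siNUDT5 and 9.46 to 15.02 TPM in siCtrl libraries, with CD3E at 0, PTPRC and CDH5 under 1 TPM, and EPCAM lower in siNUDT5 by 0.74 on the log2 scale (limma, adjusted p = 0.0271), which held in 9 of 14. The part of these marker differences in the results was not tested.

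Of the 10 genes, 8 had a mean of at least 1 TPM and were tested, and EGR3 and KLF4 were not. KLF2, IER3, EGR2, EGR1, KLF6 and IER2 rose, IER5 fell, and KLF10 did not pass the threshold, an adjusted p of 0.05. The test was limma's moderated two-sided test of log2(TPM + 1), and p was adjusted by Benjamini-Hochberg over the 12236 genes tested. In bulk RNA, more cells that express a gene and more RNA of it per cell cannot be told apart. Over all tested genes 10.9% rose and 5.20% fell, 16.1% in all. The median log2 change of the 8 was 0.46, and that of all tested genes 0.05. EGR2 reached 1 TPM only through its siNUDT5 libraries, so it could enter the test only by being high there. The values of the groups did not overlap in 8 of the 10 genes, in 7 of the 8 tested, where 37.3% of tested genes had no overlap. An exact permutation test of a single gene's TPM cannot go below p = 0.1 with 3 against 3 libraries, and gave that value, two-sided, in these 8.

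**Figure D2:**
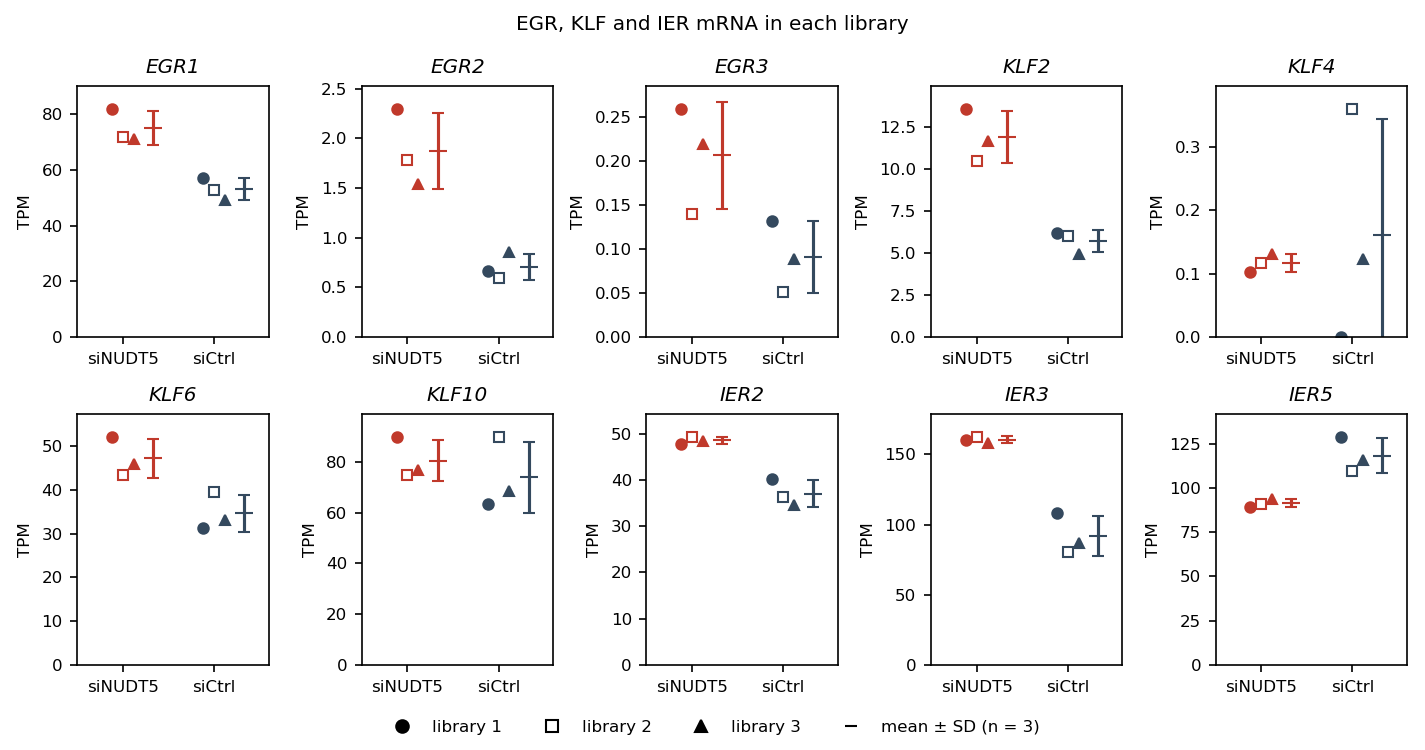
TPM of each of the 10 genes in the 3 siNUDT5 (left) and 3 siCtrl (right) libraries, with the mean and SD beside the points and each vertical axis starting at 0. Groups separate in 8 genes, with IER5 the gene that is lower in siNUDT5, and overlap in KLF4 and KLF10, where siCtrl 2 is the highest siCtrl library.

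EGR1, the best known of the EGR activators, had 81.9, 71.7 and 71.1 TPM in siNUDT5 libraries against 57.1, 52.6 and 49.2 TPM in siCtrl libraries. Every siNUDT5 library lay above every siCtrl library, and siNUDT5 1 was highest. The means were 74.9 ± 6.08 and 53.0 ± 3.96 TPM (SD, n = 3 each), a 1.41-fold difference. The log2 change was 0.49 (SE, its standard error, 0.0959, adjusted p = 0.0119, limma), larger in size than that of 88.5% of tested genes. Without siCtrl 3 the adjusted p was 0.0649, and without siNUDT5 1 it was 0.0630, with log2 changes of 0.44 and 0.43. The TPM steps fitted 1529, 1768 and 1565 reads in siNUDT5 libraries and 1193, 704 and 1151 in siCtrl libraries.

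EGR2, also called Krox20 and known for its part in Schwann cell myelination, was much lower in level. It had 2.30, 1.78 and 1.54 TPM in siNUDT5 libraries against 0.668, 0.596 and 0.853 TPM in siCtrl libraries. These values corresponded to 43, 44 and 34 reads in siNUDT5 and 14, 8 and 20 reads in siCtrl libraries. The groups were well apart, and the mean TPM was 1.87 ± 0.387 in siNUDT5 and 0.706 ± 0.132 in siCtrl libraries (SD, n = 3 each), 2.65-fold. The log2 change was 0.75 (SE 0.138, adjusted p = 0.00975, limma), and it passed in each of the 13 alternatives that could test it. EGR2 met the 1 TPM filter only through its siNUDT5 libraries, and without the filter its adjusted p was 0.0119 (limma). The size of the log2 change depends on the pseudocount at this level and was 1.29 with a pseudocount of 0.1 and 0.27 with 5.

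EGR3, which acts with EGR2 in T cells, was near the detection limit. It had 0.259, 0.140 and 0.220 TPM in siNUDT5 libraries, or 7, 5 and 7 reads, against 0.133, 0.0517 and 0.0888 TPM in siCtrl libraries, or 4, 1 and 3 reads. The lowest siNUDT5 and the highest siCtrl value almost met. Without a filter on low genes its log2 change was 0.14 with adjusted p = 0.181 (limma), so no difference was detectable at this depth.

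KLF2, known for keeping endothelial cells and lymphocytes quiescent, had the largest change of the members. It had 13.6, 10.5 and 11.7 TPM in siNUDT5 libraries against 6.19, 6.04 and 4.98 TPM in siCtrl libraries, or 157, 160 and 159 against 80, 50 and 72 reads. No siCtrl library came near the siNUDT5 range. The means were 11.9 ± 1.57 and 5.73 ± 0.661 TPM (SD, n = 3 each), 2.08-fold. The log2 change of 0.94 (standard error 0.129, adjusted p = 0.00293, limma) was larger in size than that of 98.3% of tested genes, and it passed in all 14 alternatives. Its promoter is the member window with the MEF2 site.

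KLF6, a growth-restraining factor of many tissues, had 52.2, 43.4 and 45.9 TPM in siNUDT5 libraries against 31.3, 39.5 and 33.1 TPM in siCtrl libraries. The groups did not overlap, but siCtrl 2 came close to siNUDT5 2. The log2 change was 0.44 (SE 0.115, adjusted p = 0.0360, limma), 1.36-fold in mean TPM. The call held without siCtrl 2 (0.53, adjusted p = 0.000790) and was lost when any other library was left out, with adjusted p of 0.0701 to 0.142 and log2 changes of 0.37 to 0.50. It was also lost without the filter, at 0.0556.

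KLF10, induced early by TGF-beta, had 89.7, 74.96 and 76.9 TPM in siNUDT5 libraries against 63.5, 89.9 and 68.3 TPM in siCtrl libraries. siCtrl 2 alone reached the siNUDT5 range, and it was the highest of all 6. The log2 change was 0.13 (95% interval -0.18 to 0.45, adjusted p = 0.563, limma). Without siCtrl 2 it was 0.28 with adjusted p = 0.0280, so this library decides the call.

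KLF4, a reprogramming factor, was near the detection limit, with 0.103, 0.117 and 0.131 TPM in siNUDT5 libraries against 0, 0.359 and 0.123 TPM in siCtrl libraries. That is 2, 3 and 3 reads in siNUDT5 and 0, 5 and 3 reads in siCtrl libraries. The 0 in siCtrl 1 allows a level of up to 0.138 TPM (3 reads, counting error only), above the siNUDT5 values. A difference was not detectable at this depth (no filter, log2 change -0.04, adjusted p = 0.843, limma). KLF4 and KLF10 were the members whose groups overlapped, and KLF2 and KLF6 were the KLF members that rose.

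IER3 was the most abundant member in siNUDT5 libraries, at 160.3, 162.7 and 157.8 TPM, against 108.3, 80.4 and 87.1 TPM in siCtrl libraries. The siNUDT5 values were tight and all far above siCtrl, whose highest library was siCtrl 1. The means were 160.3 ± 2.46 and 91.9 ± 14.5 TPM (SD, n = 3 each), 1.74-fold. The log2 change of 0.81 (standard error 0.112, adjusted p = 0.00304, limma) passed in all 14 alternatives. The antisense gene IER3-AS1 overlaps it in GENCODE 29, as AC011446.2 does IER2 and AC055854.1 does EGR3. The library kit keeps strand, but the sources used here do not say whether counting used it, so reads of overlapping genes may be mixed.

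IER2 had 47.9, 49.4 and 48.4 TPM in siNUDT5 libraries against 40.3, 36.2 and 34.5 TPM in siCtrl libraries, or 873, 1190 and 1042 against 822, 474 and 789 reads. The siNUDT5 libraries were nearly equal and lay above all siCtrl libraries. The log2 change was 0.39 (SE 0.0889, adjusted p = 0.0227, limma), 1.31-fold in mean TPM. The adjusted p was 0.114 without siCtrl 3 and 0.0840, 0.104 and 0.0953 without siNUDT5 1, 2 and 3, and 0.0588 with quantile normalization.

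IER5, a radiation-induced relative of IER2, went the other way. It had 89.2, 91.1 and 93.8 TPM in siNUDT5 libraries against 129, 110 and 116 TPM in siCtrl libraries, and no siNUDT5 library reached the siCtrl range. The means were 91.4 ± 2.34 and 118 ± 9.85 TPM (SD, n = 3 each), so 77.2% of the siCtrl level was left. The log2 change was -0.37 (SE 0.0855, adjusted p = 0.0237, limma). It kept its sign in all alternatives, but the adjusted p was 0.0875 without siCtrl 3 and 0.1002, 0.0972 and 0.0853 without siNUDT5 1, 2 and 3. IER5L, the gene most like it by name, had 4.81 ± 0.315 TPM in siNUDT5 and 3.92 ± 0.0653 TPM in siCtrl libraries (SD, n = 3 each) and did not pass (log2 change 0.24, adjusted p = 0.153, limma).

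**Figure D3:**
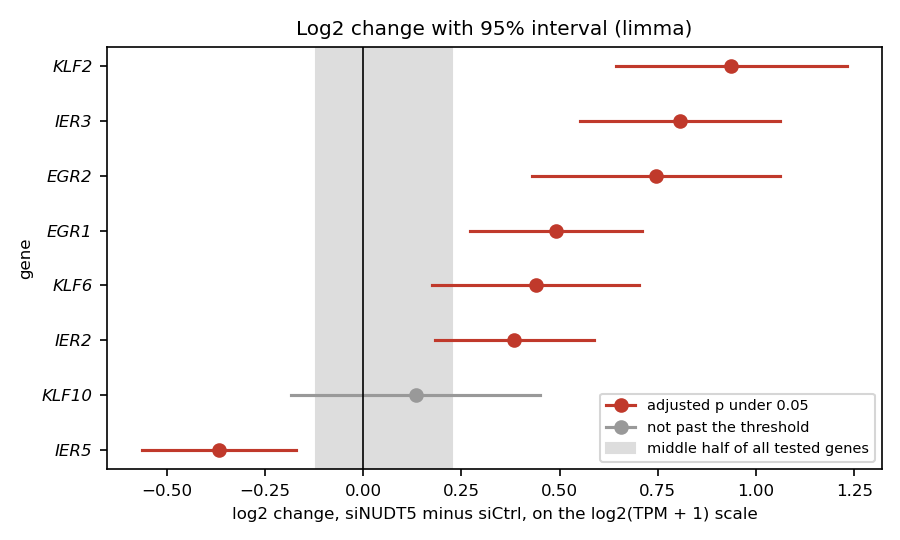
Log2 change (siNUDT5 minus siCtrl, log2(TPM + 1) scale) of the 8 tested members with its 95% interval from limma, in red where the adjusted p was under 0.05, over a grey band for the quartiles of all tested genes (-0.12 to 0.23). KLF2 is highest at 0.94, IER5 is the member below 0 at -0.37, and the KLF10 interval spans 0.

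In mean level the order in siNUDT5 libraries was IER3, IER5, KLF10, EGR1, IER2, KLF6, KLF2, EGR2, EGR3 and KLF4. In siCtrl libraries IER5 stood first and IER3 second, and KLF4 stood above EGR3, with the other 6 places the same. IER3 and IER5 did not overlap in siNUDT5 libraries (157.8 to 162.7 against 89.2 to 93.8 TPM) or in siCtrl libraries (80.4 to 108.3 against 110 to 129 TPM), and their order was opposite. IER5 and KLF10, and KLF10 and EGR1, overlapped in siNUDT5 libraries, IER3 and KLF10, and KLF4 and EGR3, in siCtrl libraries, and IER2 and KLF6 in both groups, so the order of these neighbours is within their spread. These orders describe levels per transcript length and were not tested.

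KLF2, IER3 and EGR2 passed under every setting that could test them, and the other 4 called members did not. EGR2, unlike KLF2 and IER3, met the 1 TPM filter only through its siNUDT5 libraries, where it was high. Leaving out siCtrl 2 raised the calls to 7 higher and 1 lower, with 31.1% of all tested genes called. Leaving out siCtrl 3 or siNUDT5 1 left 3 higher and none lower, with 7.09% and 6.90% of all genes called, and leaving out siNUDT5 2 or 3 left 4 higher and none lower, with 6.34% and 6.24%. Scaling left the members' directions unchanged, while among all tested genes the share of calls that were higher was 67.7% without scaling, 53.8% with median-ratio scaling (1041 higher, 895 lower) and 51.3% with quantile normalization (1018 higher, 965 lower). Without scaling 1334 genes were higher and 636 lower.

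**Figure D4:**
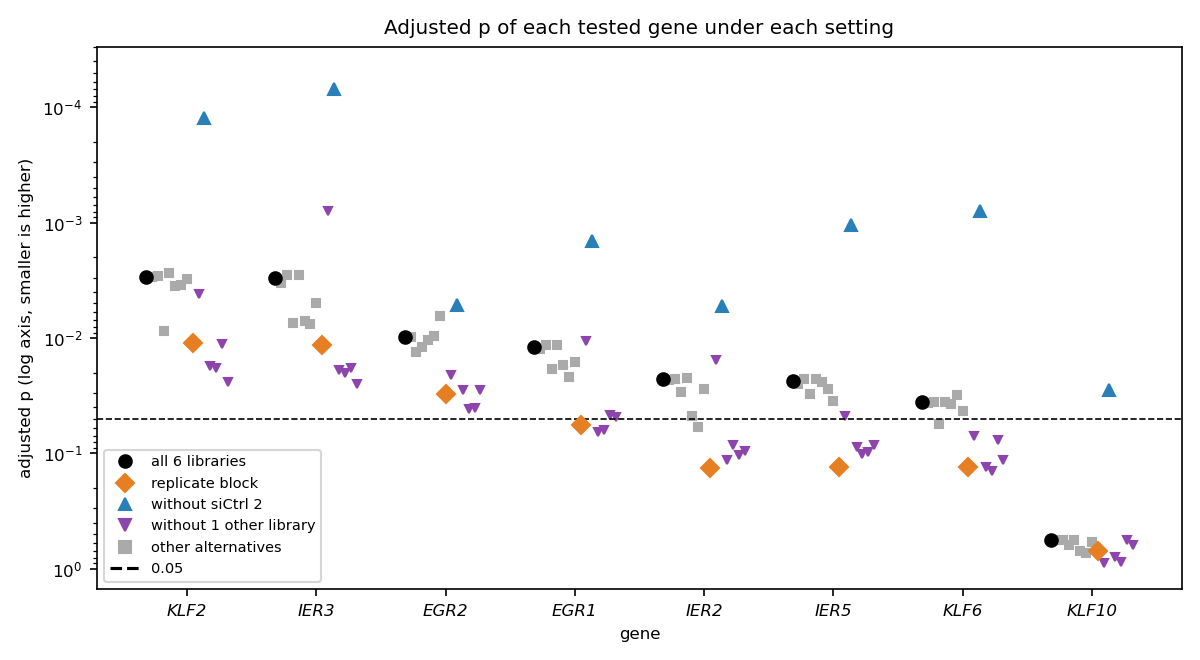
Adjusted p (log axis, smaller values higher up) of the 8 tested members with all 6 libraries and under each alternative, with the dashed line at 0.05. KLF2, IER3 and EGR2 stay on the called side throughout, the 4 next genes cross the line, and KLF10 crosses it only without siCtrl 2.

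Among factors known to act upstream of early response genes, SRF, the CArG box factor and itself an early response gene, was lower in siNUDT5 libraries. It had 44.3 ± 3.58 TPM in siNUDT5 and 80.9 ± 10.8 TPM in siCtrl libraries (SD, n = 3 each), and the log2 change was -0.85 (adjusted p = 0.00273, limma), and passed in all 14 alternatives. Of 24 tested kinases and factors upstream of early response genes 3 rose and 1 fell, against 10.9% and 5.20% of all tested genes. The other 20 did not pass. Those that rose were the SRF partner ELK1 (0.40), MEF2D (0.39) and the ERK-activated kinase gene RPS6KA1 (0.38). None of these 3 passed with median-ratio scaling or quantile normalization. The ERK5 gene MAPK7 had 13.9 ± 1.48 TPM in siNUDT5 and 16.02 ± 3.14 TPM in siCtrl libraries (SD, n = 3 each) and did not pass (log2 change -0.18). The list's median log2 change was 0.06, close to that of all tested genes. The list's counts were 7 higher and 3 lower without siCtrl 2, where 31.1% of all tested genes were called. They were 0 higher and 1 lower without siCtrl 3 or any siNUDT5 library, where 6.24% to 7.09% of all tested genes were called.

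Of 14 tested feedback regulators 4 rose and 2 fell, against 10.9% and 5.20% of all tested genes. The other 8 did not pass, and the list's median log2 change was 0.17. NAB2, the corepressor that EGR proteins induce and bind, had 49.9 ± 1.41 TPM in siNUDT5 and 35.4 ± 2.51 TPM in siCtrl libraries (SD, n = 3 each), and the log2 change was 0.49 (adjusted p = 0.00859, limma). Its adjusted p was 0.0534 without siCtrl 3 and 0.0567 without siNUDT5 3. The MAP kinase phosphatase genes DUSP10 (0.70) and DUSP2 (0.62) rose, while DUSP1, of the same family, fell by 0.37 (adjusted p = 0.0159, limma). It had 64.2 ± 1.26 TPM in siNUDT5 and 83.5 ± 4.06 TPM in siCtrl libraries (SD, n = 3 each). ZFP36L1, whose protein promotes decay of AU-rich mRNAs, fell by 0.48 on the log2 scale. The call held in 11 of 14 alternatives for DUSP10, 10 for ZFP36L1 and only 3 for DUSP2, whose adjusted p was 0.0483 (limma) with all libraries. DUSP1 and ZFP36L1 both lost the call when any siNUDT5 library was left out. DUSP2 lost its call under both scalings and when any library other than siCtrl 2 was left out. The list had 7 rises and 3 falls without siCtrl 2, where 31.1% of all tested genes were called. Without siCtrl 3 or any siNUDT5 library it had 0 or 1 fall and 0 to 2 rises, where 6.24% to 7.09% were called. NAB1 had 45.4 ± 4.71 TPM in siNUDT5 and 41.6 ± 11.7 TPM in siCtrl libraries (SD, n = 3 each) and did not pass.

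Relatives outside the 10 genes went both ways. Of 16 tested EGR, KLF, SP and IER relatives 2 rose and 2 fell, against 10.9% and 5.20% of all tested genes. The other 12 did not pass, and the list's median log2 change was 0.00. KLF9, a glucocorticoid-responsive factor, had 14.5 ± 1.66 TPM in siNUDT5 and 5.99 ± 1.67 TPM in siCtrl libraries (SD, n = 3 each), and the log2 change was 1.17 (adjusted p = 0.00376, limma). KLF11, the closest relative of KLF10, had 12.04 ± 1.20 TPM in siNUDT5 and 26.99 ± 4.38 TPM in siCtrl libraries (SD, n = 3 each), and the log2 change was -1.10 (adjusted p = 0.00196, limma). WT1, whose zinc fingers resemble those of EGR1, fell by 0.75, and KLF14 rose by 0.50 on the log2 scale. KLF9, KLF11 and WT1 passed in all 14 alternatives and KLF14 in 8 of 13. EGR4 had 4, 4 and 1 reads in siNUDT5 and 0, 1 and 0 reads in siCtrl libraries and was not tested.

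Of 29 tested other early response genes 8 rose and 3 fell, against 10.9% and 5.20% of all tested genes. The other 18 did not pass, and the list's median log2 change was 0.18. FOS, the AP-1 subunit with a promoter CArG box, had 6.17 ± 0.730 TPM in siNUDT5 and 2.79 ± 0.154 TPM in siCtrl libraries (SD, n = 3 each), and the log2 change was 0.91 (adjusted p = 0.00213, limma). The kinase gene SGK1 rose by 0.69. CYR61, a matricellular protein gene and target of SRF cofactors and YAP, had 395 ± 15.8 TPM in siNUDT5 and 755 ± 34.97 TPM in siCtrl libraries (SD, n = 3 each), and the log2 change was -0.93 (adjusted p = 0.000320, limma). CTGF, another matricellular protein gene of the list, had 544 ± 40.2 TPM in siNUDT5 and 475 ± 56.1 TPM in siCtrl libraries (SD, n = 3 each). It did not pass (log2 change 0.20, adjusted p = 0.209, limma). The stress factor gene ATF3 fell by 0.64 on the log2 scale. The called genes of this list thus went both ways, and whether the list moved together was not tested. With siCtrl 3, siNUDT5 1 or siNUDT5 2 left out, 3 rose and 2 fell, and without siNUDT5 3, 4 rose and 2 fell. Of all tested genes 6.24% to 7.09% were called in these fits.

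Of 17 tested textbook targets of EGR and KLF proteins 6 rose and 3 fell, against 10.9% and 5.20% of all tested genes. The other 8 did not pass, and the list's median log2 change was 0.24. THBS1, which encodes thrombospondin, had 579 ± 10.8 TPM in siNUDT5 and 299 ± 31.8 TPM in siCtrl libraries (SD, n = 3 each), and the log2 change was 0.96 (adjusted p = 0.000679, limma). S1PR1, the sphingosine phosphate receptor gene that KLF2 drives in lymphocytes, had a log2 change of 0.70, and TGFB1 one of 0.65. THBS1, S1PR1 and TGFB1 passed in every alternative that could test them. TGFBR1 fell by 0.78 on the log2 scale and passed in 8 of 14. THBD and NOS3, endothelial KLF2 targets, stayed at 0.516 ± 0.175 and 0.236 ± 0.0973 TPM in siNUDT5 against 0.333 ± 0.151 and 0.328 ± 0.181 TPM in siCtrl libraries (SD, n = 3 each) and were not tested. The list had 4 rises and 1 fall without siCtrl 3, siNUDT5 1 or siNUDT5 3, and 3 rises and 1 fall without siNUDT5 2. Of all tested genes 6.24% to 7.09% were called in these fits.

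Of 16 genes of PP2A, CDC25B, HSF1 and heat shock proteins, to which IER proteins bind or which HSF1 drives, 3 rose and none fell. Among all tested genes 10.9% rose and 5.20% fell (limma), and the list's median log2 change was 0.26. DNAJB1, an HSF1 target, had 219 ± 4.82 TPM in siNUDT5 and 137 ± 8.34 TPM in siCtrl libraries (SD, n = 3 each), and the log2 change was 0.68 (adjusted p = 0.00150, limma), and passed in all 14 alternatives. The phosphatase subunit genes PPP2R2B (0.48) and PPP2CB (0.40) rose. PPP2R2B averaged 1.36 TPM in siNUDT5 and 0.693 TPM in siCtrl libraries, so it passed the filter only through siNUDT5 and could not be tested when any siNUDT5 library was left out. Its call held in 7 of the 10 alternatives that could test it, and that of PPP2CB in 6 of 14. HSF1 itself had 212 ± 11.1 TPM in siNUDT5 and 183 ± 30.01 TPM in siCtrl libraries (SD, n = 3 each) and did not pass. The list had 7 rises without siCtrl 2, where 31.1% of all tested genes were called. It had 1 rise when any other library was left out, where 6.24% to 17.0% were called. HSPA1A and HSPA1B are near-identical copies whose reads the counting may split.

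**Figure D5:**
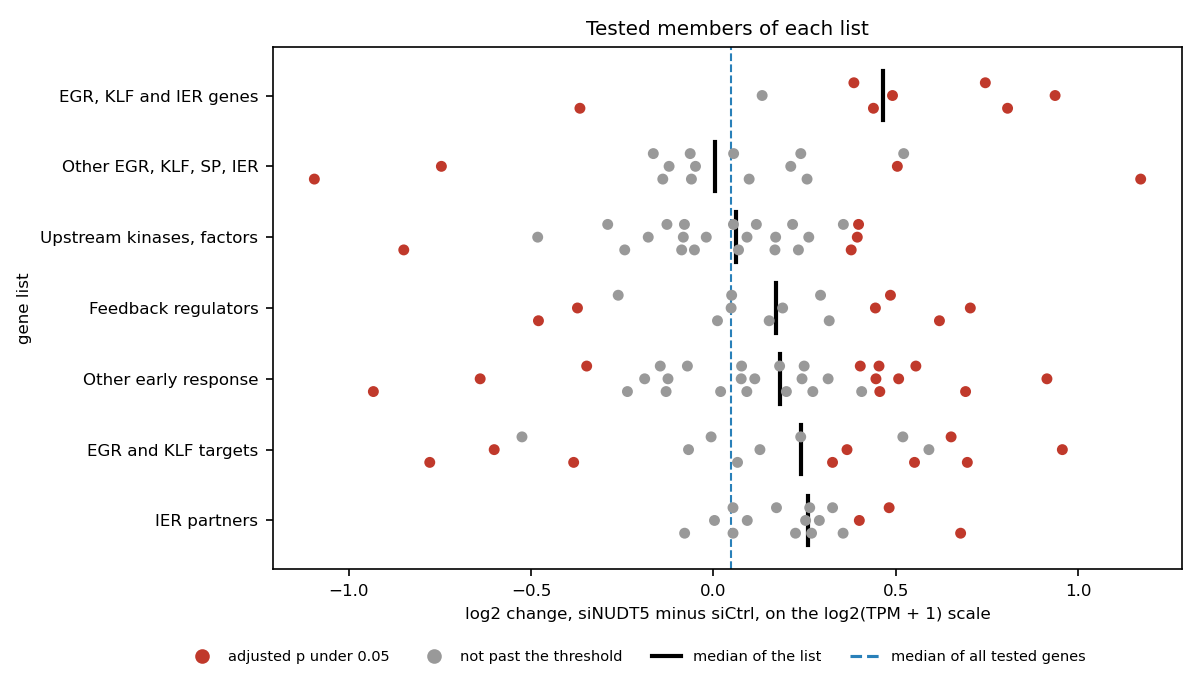
Log2 change (siNUDT5 minus siCtrl, log2(TPM + 1) scale) of each tested gene in the 7 lists, in red where the adjusted p was under 0.05, with a black bar at each list's median and a dashed line at the median of all tested genes. The EGR, KLF and IER genes have a median of 0.46, and the other lists lie between 0.00 and 0.26 with called genes on both sides of 0 in all but the IER partners.

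The genes whose profile over the 6 libraries was most like that of the 3 members with the largest changes were found by the root mean square difference of log2(TPM + 1) centred on each gene's mean. For KLF2 they were the netrin receptor gene UNC5C (0.0620), FOS (0.0630) and the phosphatase gene DUSP18 (0.0723). UNC5C averaged 1.90 TPM in siNUDT5 and 0.493 TPM in siCtrl libraries, so it met the 1 TPM filter only through siNUDT5. The log2(TPM + 1) scale understates changes of low genes such as UNC5C and EGR2, so likeness on it is not likeness in fold difference. For IER3 they were the membrane metalloprotease gene MMP14 (0.0553), C14orf132 (0.0612) and the semaphorin gene SEMA7A (0.0643). For EGR2 they were the chaperone gene DNAJA4 (0.0764), the peroxidasin gene PXDN (0.0809) and the cell death gene BMF (0.0887). These genes were picked for likeness, so their changes, log2 0.64 to 0.98, are no separate result.

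Among 3' UTR words that an earlier analysis picked on these same changes, EGR1 and KLF6 held AGACTTA, EGR3 held AAGACTT, and none of the 10 members held GATTAAC. The shares of searched genes with these words were 11.9%, 18.6% and 6.35%. SRF held none of the 3 words, KLF9 held AAGACTT, and KLF11 held AAGACTT and AGACTTA. The part of these words in the changes was not tested.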

How the data were processed

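RNA of 6 libraries, 3 per group by the sample titles, was prepared with a strand-specific mRNA kit, per the labels' protocols. Values were deposited as TPM, a row per gene symbol, each library summing to 1000000. Per the submitters' processing notes, the tools were STAR 2.7.3a and DESeq2 1.22.1 and the build hg19, with no role stated. The sources used here do not say how TPM were computed. The promoter and 3' UTR sequences, of GRCh38, were matched by symbol.

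Because TPM are normalized, limma 3.58.1 (R 4.3.3) was fitted on log2(TPM + 1), lmFit and eBayes with a trend, to genes averaging 1 TPM or more over the 6 libraries, siNUDT5 minus siCtrl, with Benjamini-Hochberg adjustment over all of them. The fit was tested on simulated data. Fold differences are ratios of mean TPM. Log2 changes understate those of low genes.

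Read numbers were taken from the steps between low values: of the low genes (under 0.3 TPM in siCtrl 1), 72.0% to 81.5% had a ratio to that library that, scaled for relative depth, matched within 0.1% one between integers no larger than 5. For 6 members the smallest read numbers that made all libraries whole within 0.03 reads are given. Any common multiple of them would be whole too. Intervals and floors cover counting error only.

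The members, the lists (159 of 160 entries matched) and the tests were chosen with earlier results of these data known. Named genes are the members, NUDT5, up to 4 called genes per list by size, and the 3 nearest profiles of 3 members. MAPK7, NAB1, DUSP1, CTGF, CDC25B, IER5L, HSF1, THBD, NOS3, HSPA1A, HSPA1B, EGR4 and markers fall outside that rule. Their values had been seen when they were chosen. Python 3.11.15, numpy 2.4.6, pandas 2.3.3, scipy 1.17.1 and matplotlib 3.10.9 were used. A marker gene is not reported here. The 14 alternatives were leaving out 1 library at a time, a replicate block, no variance trend, quantile normalization, median-ratio scaling, a 5 TPM filter, none, and pseudocounts of 5 and 0.1.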

Additional observations from a re-analysis of the deposited data

How the results depend on the processing

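KLF2, IER3 and NUDT5 kept their direction and call in all 14 alternatives and EGR2 in the 13 that could test it. EGR2 entered all of these but the unfiltered fit only through its siNUDT5 libraries. EGR2 and FOS could not be tested at a mean of at least 5 TPM. No member reversed. Same-numbered libraries did not deviate together (correlations of deviations across genes -0.426, -0.538 and -0.045), and no library correlated best with its own number. Deviations within a group of 3 sum to 0, so these correlations cannot tell whether same-numbered libraries were handled together. The sample titles give only a replicate number. With the block 486 genes rose and 253 fell, 3 members rose and 0 fell, and EGR1 (0.49, adjusted p = 0.0567, limma), KLF6 (0.44, 0.132), IER2 (0.39, 0.135) and IER5 (-0.37, 0.131) lost the call. The block called 6.04% of all tested genes. It left 1 called gene among upstream factors, 1 among feedback regulators and 5 among other early genes. Among targets 3 were left and among IER partners 1. Quantile normalization gave 965 falls and cost IER2 its call (0.32). The upstream factors had 3 rises and 1 fall without scaling, 0 rises and 2 falls with quantile normalization, and 0 rises and 1 fall with median-ratio scaling. Without the filter KLF6 lost its call (0.44).

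Leaving out 1 library gave 520 to 2672 rises and 213 to 1132 falls over all genes, 3 to 7 rises and 0 to 1 falls among members, 1 to 10 calls among upstream factors, 0 to 10 among feedback regulators, 5 to 13 among other early genes, 4 to 10 among targets and 1 to 7 among IER partners. Log2 changes then ran from 0.43 to 0.55 for EGR1, 0.37 to 0.53 for KLF6, 0.033 to 0.28 for KLF10, 0.34 to 0.45 for IER2 and -0.42 to -0.30 for IER5. These highest counts came without siCtrl 2, the shallowest library, except that of targets, which came without siCtrl 1. Of all tested genes 31.1% were called without siCtrl 2 and 17.0% without siCtrl 1. EGR3 and KLF4 had few reads at this depth, at most 7 per library in the smallest whole-number solution. The cause of these shifts was not tested.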
